A study of Mus musculus with 10 samples.

Results

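The constitutive proteasome genes are the genes whose symbol begins with Psm, a letter from a to g and a digit, without the immunoproteasome genes Psmb8, Psmb9 and Psmb10. The rule found 46 such genes among the 22180 genes that had a probe set with exactly 1 gene symbol, and each was read by its brightest probe set over all 10 arrays. They divide into 15 genes of the core particle, 22 genes of regulatory particles and regulators, 7 assembly chaperones and 2 genes of proteins that bind a proteasome subunit or share its name. Psma4, an alpha ring gene, had no probe set with its symbol alone and is not a member. Expression was measured on 5 arrays labelled FMR1-KO and 5 arrays labelled Control (wild-type), each hybridised with RNA of EGFP-positive cells sorted by FACS as astrocytes from the cortex of mice 8 weeks of age. The labels do not give the strain, the promoter of the EGFP reporter, the disrupted part of Fmr1, or whether an array stands for 1 animal or a pool. The titles call the replicates of each group biological, and p-values speak only of the spread among these samples. The question set by the study was how the arrays labelled FMR1-KO differ from Control.

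The proteasome degrades proteins that carry a chain of ubiquitin. Its core particle, named 20S, is a barrel of outer alpha rings, which gate the entry, and inner beta rings, which hold the proteolytic sites. The 19S regulatory particle caps the barrel, and in it the ATPases of the Psmc genes unfold the substrate while the Psmd genes encode a scaffold, ubiquitin receptors and a deubiquitinase. Other caps, encoded by Psme genes, open the gate without ATP. In resting astrocytes, glia that support synapses, the constitutive form prevails, and interferon brings in the immunoproteasome subunits. FMRP, the product of Fmr1, is an RNA-binding protein that represses translation.

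The values are the authors' log2 levels per probe set, and a difference is FMR1-KO minus Control between the group means on that scale. Fmr1 itself read 8.22 ± 0.15 on arrays labelled FMR1-KO and 8.04 ± 0.26 on Control arrays (SD, n = 5 each; limma adjusted p = 0.704), a difference of 0.19, or 0.08 without Control array 2. Its level was thus not lower where the label says KO, and the group is called by its label throughout. Xist read 10.60 and 10.98 on Control arrays 2 and 3 and 4.98 to 5.23 on the other 8 arrays. The Y-linked Uty read 4.82 and 4.77 on Control arrays 2 and 3, against 7.64 to 8.30 on the other 8. Kdm5d, also Y-linked, read 4.86 and 4.83 there, against 7.05 to 7.76. Control arrays 2 and 3 thus read as female and the other 8 arrays as male, so sex was not balanced between the groups. Leading counts are therefore also given without Control arrays 2 and 3. Of 20 astrocyte markers, 20 were measured, all 20 with a higher mean in FMR1-KO and a median difference of 0.40. Their mean level ran from 9.99 to 10.95 on the arrays labelled FMR1-KO and from 9.82 to 10.51 on Control arrays. The 19 measured of 20 microglia markers ran from 9.03 to 10.48 on FMR1-KO arrays and from 9.79 to 10.77 on Control arrays, all 19 with a lower mean in FMR1-KO, and lay above the array medians on every array. Endothelial markers, 8 of 10 tested, ran from 6.44 to 6.61 in FMR1-KO and from 6.52 to 7.00 in Control. Of these, 7 had a lower and 1 a higher mean in FMR1-KO, with a median difference of -0.30. Neuron markers, 10 of 12, ran from 5.99 to 6.16 in FMR1-KO and from 6.05 to 6.29 in Control, 7 lower and 3 higher. Oligodendrocyte lineage markers, 11 of 12, ran from 6.57 to 6.93 in FMR1-KO and from 6.53 to 6.82 in Control, 5 lower and 6 higher. The array medians ran from 6.11 to 6.24. In sorted material of this kind, fewer cells of a type and less RNA per cell cannot be told apart.

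No proteasome gene differed between the groups past the threshold, and the levels of the groups overlapped for all 46 (of all genes, 0.536% had every FMR1-KO array below every Control array and 0.429% above). Most members had a slightly lower mean in FMR1-KO: 34 were lower and 12 higher, with a median difference of -0.09 (-6.26% on a linear scale), against 53.2% of the 17712 genes tested with a lower mean and a median of -0.01. The core genes, 12 lower and 3 higher with a median of -0.14 (-9.19%), stood further from 0 than the regulatory genes, 17 lower and 5 higher with a median of -0.08 (-5.08%), and the assembly chaperones, 4 lower and 3 higher with a median of -0.02. Members share the same 10 arrays, so these counts are descriptions and not independent observations. In the limma fit over all genes tested, 0 of the 46 members were called higher and 0 lower at a Benjamini-Hochberg adjusted p under 0.05, and the background was 0% in each direction. At an unadjusted p under 0.05 there were 2 members lower (4.35%), Psme1 and Psmd10, against a background of 3.53%, and 1 higher (2.17%), Psmb11, against 4%, so both shares are near the background. Every array labelled FMR1-KO lay below the Control mean for 11 members (23.9%), against 10.7% of all genes, and above it for 2, Psmb11 and Psme3ip1, against 9.35%. Of the 11, 7 were core genes (Psma7, Psma8, Psmb2, Psmb3, Psmb4, Psmb5 and Psmb6), and the others were Psmc3, Psme1, Psmd10 and Psmg4.

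**Figure D1:**
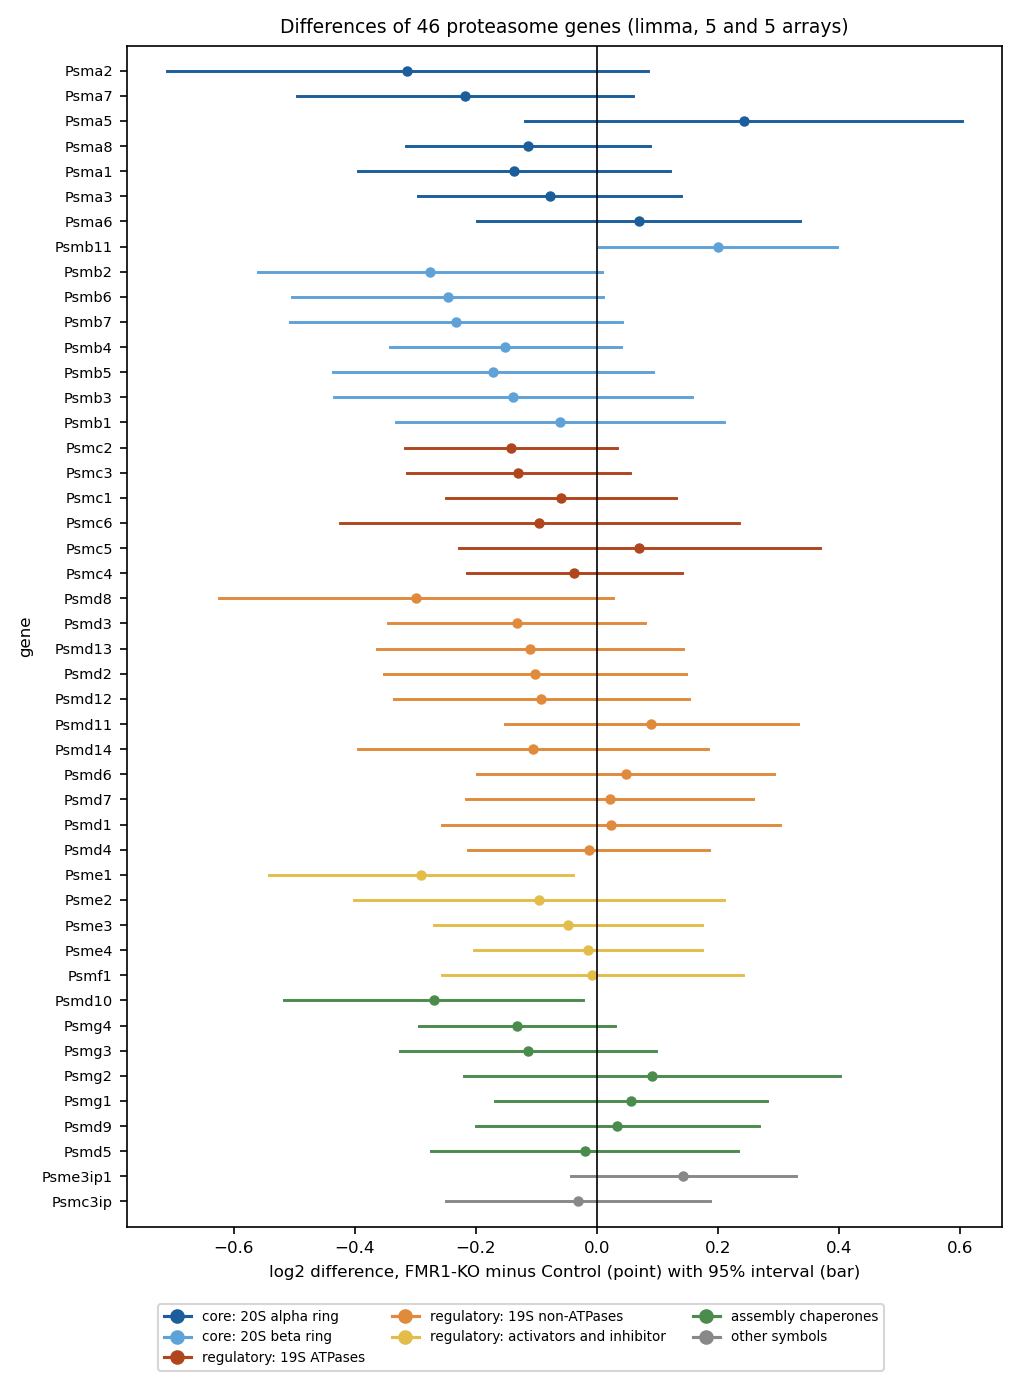
Differences of the 46 proteasome genes between 5 arrays labelled FMR1-KO and 5 Control arrays, as log2 FMR1-KO minus Control (points) with the 95% interval of limma (bars), coloured by part of the proteasome. Most points lie left of 0, 43 of the 46 intervals hold 0, and none of the genes passed the adjusted threshold.

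The precision of these arrays sets what could be seen. The 95% intervals, not adjusted for the number of genes, held 0 for 43 of the 46 members, all but Psme1, Psmd10 and Psmb11. For 43 members the whole interval lay within a 1.5-fold change in either direction, that is 0.58 on the log2 scale. The exceptions were Psma2, Psma5 and Psmd8, whose intervals reached -0.71, 0.60 and -0.62. Of all 17712 genes tested, 16378 had an interval that held 0 and 14960 had one within 1.5-fold. Standard errors of the members ran from 0.07 to 0.18.

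Promoter sequences were set beside the parts, as counts of 3 motifs in core and regulatory members. RefSeq windows of 300 bases (GRCm38.p6) around the gene's start were matched for 38 of the 46 members, taking the first listed window of each gene. No window was matched for the core genes Psma8, Psmb1, Psmb2 and Psmb7, so the core counts leave these out. On either strand, CCGGAAG, the core of sites for ETS family factors, was in 0 of 11 core windows, 9 of 14 windows of 19S genes and 11 of 19 regulatory windows in all, against 13.9% of 13664 windows of genes tested. CCAAT, the NF-Y box, was in 7 of 11 core and 5 of 19 regulatory windows, against 37.7%. TGANNNNGC, a loose form of the antioxidant response element that Nfe2l1 and Nfe2l2 bind, was in 8 of 11 core and 7 of 19 regulatory windows, against 42.7%. No test was made of these counts, and a match of letters is a description, not a binding site.

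Shown are the windows of the catalytic subunits Psmb5 (chr14:54617946-54618245 on the minus strand) and Psmb6 (chr11:70525107-70525406 on the plus strand), of the ATPase Psmc2 (chr5:21785025-21785324 on the plus strand), and of the members with the lowest p, Psme1 (chr14:55578244-55578543 on the plus strand) and Psmd10 (chrX:140956662-140956961 on the minus strand), each 5′ to 3′ along the gene, from RefSeq. Capitals mark the motif letters found on either strand.
Psmb5: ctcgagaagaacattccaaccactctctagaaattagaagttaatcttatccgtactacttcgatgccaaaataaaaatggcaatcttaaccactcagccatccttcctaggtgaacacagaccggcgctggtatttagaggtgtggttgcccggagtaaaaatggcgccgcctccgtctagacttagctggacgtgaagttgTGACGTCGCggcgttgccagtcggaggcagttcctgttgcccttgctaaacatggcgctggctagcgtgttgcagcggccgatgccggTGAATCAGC
Psmb6: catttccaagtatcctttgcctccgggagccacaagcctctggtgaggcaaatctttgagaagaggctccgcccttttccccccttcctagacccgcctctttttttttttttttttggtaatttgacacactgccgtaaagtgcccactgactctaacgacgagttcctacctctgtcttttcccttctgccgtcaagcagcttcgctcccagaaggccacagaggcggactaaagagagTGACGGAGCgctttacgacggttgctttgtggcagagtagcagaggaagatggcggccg
Psmc2: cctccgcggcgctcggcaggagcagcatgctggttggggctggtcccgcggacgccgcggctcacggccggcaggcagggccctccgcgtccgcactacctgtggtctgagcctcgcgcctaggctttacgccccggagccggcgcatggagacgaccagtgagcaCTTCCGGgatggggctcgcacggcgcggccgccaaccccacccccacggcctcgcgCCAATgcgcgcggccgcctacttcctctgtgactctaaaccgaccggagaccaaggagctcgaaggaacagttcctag
Psme1: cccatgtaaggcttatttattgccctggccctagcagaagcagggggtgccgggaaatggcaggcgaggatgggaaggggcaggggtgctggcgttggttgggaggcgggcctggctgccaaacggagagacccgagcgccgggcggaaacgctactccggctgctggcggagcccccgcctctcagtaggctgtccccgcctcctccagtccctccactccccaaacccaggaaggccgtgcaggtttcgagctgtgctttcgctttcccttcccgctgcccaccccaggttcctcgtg
Psmd10: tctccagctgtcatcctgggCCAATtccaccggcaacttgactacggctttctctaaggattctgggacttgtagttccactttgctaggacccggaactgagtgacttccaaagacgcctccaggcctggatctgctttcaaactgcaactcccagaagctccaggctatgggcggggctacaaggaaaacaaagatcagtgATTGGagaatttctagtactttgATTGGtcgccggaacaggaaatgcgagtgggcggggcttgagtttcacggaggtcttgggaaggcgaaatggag
Psmb5 holds TGANNNNGC at 2 places and Psmb6 at 1, Psmc2 holds CCGGAAG (as its reverse complement) and CCAAT once each, Psmd10 holds CCAAT at 3 places, and Psme1 holds none of the 3 motifs.

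The catalytic subunits of the beta ring were each a little lower on average. Psmb5 encodes the chymotrypsin-like subunit and read 7.84, 7.93, 7.82, 7.78 and 7.58 on the arrays labelled FMR1-KO 1 to 5, against 8.05, 8.17, 7.62, 8.18 and 7.76 on Control arrays 1 to 5. Control arrays 3 and 5 lay within the range of FMR1-KO, and the difference was -0.17 ± 0.12 (SE; adjusted p = 0.714 in limma). Psmb6, the caspase-like subunit, read 7.28, 7.25, 7.14, 7.10 and 6.74 in FMR1-KO, against 7.26, 7.39, 7.55, 7.41 and 7.11 in Control. Its difference was -0.25 ± 0.12 (SE; limma adjusted p = 0.655). FMR1-KO arrays 4 and 5 lay below every Control array, and the other 3 lay above Control array 5 and below Control arrays 2, 3 and 4. Without FMR1-KO array 5 the difference was -0.16. Psmb7, the trypsin-like subunit, read 8.23, 7.96, 7.90, 7.88 and 7.60 in FMR1-KO, against 8.23, 8.10, 8.00, 8.44 and 7.95 in Control, a difference of -0.23 ± 0.13 (SE; limma adjusted p = 0.671) that was -0.15 without FMR1-KO array 5. The first array of each group had the same rounded level, and the groups overlapped.

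Psmb2, a beta subunit without catalytic activity, had the most negative difference of the ring. Its levels were 7.39, 7.38, 7.19, 7.11 and 6.80 in FMR1-KO, against 7.46, 7.36, 7.54, 7.70 and 7.18 in Control, and its difference was -0.28 ± 0.13 (SE; limma adjusted p = 0.655). Only FMR1-KO arrays 4 and 5 lay below every Control array, and without array 5 the difference was -0.18. Of the other structural subunits, Psmb4 differed by -0.15 ± 0.09 (SE), Psmb3 by -0.14 ± 0.14 and Psmb1 by -0.06 ± 0.12. Psmb11, which encodes the beta subunit known from the thymus, was the single higher member of the ring and read 5.85, 5.70, 5.59, 5.80 and 5.85 in FMR1-KO, against 5.63, 5.62, 5.69, 5.34 and 5.51 in Control. It differed by 0.20 ± 0.09 (SE; unadjusted p = 0.0471, adjusted p = 0.654 in limma), and all its levels lay under the lowest array median. The other 7 genes of the ring had a lower mean in FMR1-KO over all arrays, and this count depended on single arrays. Of the 8 genes of the ring, 6 were lower without FMR1-KO array 5. Without Control arrays 2 and 3, 5 were lower and 3 higher.

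In the alpha ring, 5 of the 7 measured genes had a lower and 2 a higher mean. Psma2 had the smallest p and the widest spread, with 7.94, 7.87, 7.41, 7.34 and 7.31 in FMR1-KO, against 7.84, 8.38, 7.53, 8.09 and 7.59 in Control. FMR1-KO arrays 1 and 2 lay among the Control arrays, the other 3 below all of them, and the difference was -0.31 ± 0.18 (SE; limma adjusted p = 0.678), or -0.19 without Control array 2. Psma7 differed by -0.22 ± 0.13 (SE), with 6.97 on FMR1-KO array 5 and 7.55 to 7.69 on the other arrays of that group, against 7.62 to 7.83 in Control, and by -0.09 without that FMR1-KO array. Psma1 differed by -0.14 ± 0.12 (SE), Psma3 by -0.08 ± 0.10 and Psma6 by 0.07 ± 0.12. Psma8, the alpha subunit known from the testis, read between 5.56 and 5.95 on all arrays and differed by -0.11 ± 0.09. Psma5 went the other way at 0.24 ± 0.17 (SE), at dim levels of 5.65 ± 0.25 in FMR1-KO and 5.40 ± 0.34 in Control (SD, n = 5 each). Its dimmer probe set differed by 0.03 ± 0.08, but its mean level of 5.14 lay under the filter level of 5.32. At that level it cannot show whether the size holds.

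The ATPases of the 19S base were the tightest part, with differences from -0.14 to 0.07. Psmc2 had the smallest p of the 6 and read 7.96, 8.16, 7.95, 7.96 and 7.85 in FMR1-KO, against 8.12, 8.15, 8.03, 8.23 and 8.06 in Control. FMR1-KO array 2 lay among the Control arrays and the other 4 below them all, with a difference of -0.14 ± 0.08 (SE; limma adjusted p = 0.676). Its dimmer probe set differed by -0.04 ± 0.15. Psmc3 differed by -0.13 ± 0.08 (SE), Psmc6 by -0.10 ± 0.15, Psmc1 by -0.06 ± 0.09, Psmc4 by -0.04 ± 0.08 and Psmc5 by 0.07 ± 0.14.

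Of the 11 non-ATPase subunits of the 19S particle, 7 had a lower and 4 a higher mean. Psmd8, a lid subunit, read 8.10, 8.34, 8.01, 7.99 and 7.38 in FMR1-KO, against 8.30, 8.30, 8.31, 8.35 and 8.07 in Control. FMR1-KO array 5 was the lowest of all 10, and the difference of -0.30 ± 0.15 (SE; limma adjusted p = 0.659) was -0.15 without it. Among further lid subunits, Psmd3 differed by -0.13 ± 0.10 (SE), Psmd13 by -0.11 ± 0.12, Psmd12 by -0.09 ± 0.11, Psmd6 by 0.05 ± 0.11 and Psmd11 by 0.09 ± 0.11. Without FMR1-KO array 5, Psmd3 differed by -0.05 and Psmd13 by -0.06, and Psmd12 turned to 0.0087. The lid deubiquitinase Psmd14 differed by -0.11 ± 0.13 (SE) and its partner Psmd7 by 0.02 ± 0.11. The large base scaffolds Psmd2 and Psmd1 differed by -0.10 ± 0.11 and 0.02 ± 0.13 (SE), and the ubiquitin receptor Psmd4 by -0.01 ± 0.09.

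The alternative caps held the member with the smallest p. Psme1 encodes a subunit of the interferon-inducible activator and read 8.65, 8.57, 8.69, 8.54 and 8.54 in FMR1-KO, against 8.62, 9.26, 9.01, 8.84 and 8.71 in Control. Every Control array but the first lay above all FMR1-KO arrays, and the difference was -0.29 ± 0.12 (SE; unadjusted p = 0.0272, adjusted p = 0.654 in limma). The 2 highest levels were on the Xist-high Control arrays, and without them the difference was -0.12 ± 0.09 (unadjusted p = 0.178, adjusted p = 0.893 in limma). Its partner Psme2 also peaked on Control array 2, at 7.49, with 6.65 to 7.21 on the other Control arrays and 6.78 to 7.05 in FMR1-KO, and differed by -0.09 ± 0.14. The nuclear activator Psme3 differed by -0.05 ± 0.10 (SE), the activator Psme4 by -0.01 ± 0.09 and Psmf1, an inhibitor of the core particle in vitro, by -0.01 ± 0.11. The mean level of 10 measured of 12 interferon and antigen presentation genes ran from 7.31 to 7.79 on FMR1-KO arrays and from 7.52 to 8.13 on Control arrays, 9 of the 10 with a lower mean, and their part in the Psme1 values was not tested.

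Among the assembly chaperones, Psmd10 stood apart from the rest. Psmd10 encodes gankyrin, an X-linked chaperone of the 19S base, and read 6.14, 6.10, 5.93, 6.15 and 5.89 in FMR1-KO, against 6.36, 6.05, 6.09, 6.53 and 6.52 in Control. These levels are dim: the FMR1-KO mean of 6.04 lay under the lowest array median of 6.11, and the Control mean was 6.31. The Control arrays split: arrays 2 and 3, the Xist-high ones, lay among the FMR1-KO arrays, and arrays 1, 4 and 5 lay above them all. Over all arrays the difference was -0.27 ± 0.11 (SE; unadjusted p = 0.0352, adjusted p = 0.654 in limma). Without Control arrays 2 and 3 it was -0.43 ± 0.10 (SE; unadjusted p = 0.00153, adjusted p = 0.893 in limma), again not past the threshold over all genes. The other base chaperones Psmd5 and Psmd9 differed by -0.02 ± 0.12 and 0.03 ± 0.11 (SE). Of the chaperones of the core particle, Psmg4 differed by -0.13 ± 0.07 (SE), Psmg3 by -0.11 ± 0.10, Psmg1 by 0.06 ± 0.10 and Psmg2 by 0.09 ± 0.14, where Psmg2's dimmer probe set differed by -0.01 ± 0.07. The 2 remaining members are no proteasome subunits: Psme3ip1, an interactor of Psme3, differed by 0.14 ± 0.09, and Psmc3ip, a meiotic recombination factor, by -0.03 ± 0.10.

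**Figure D2:**
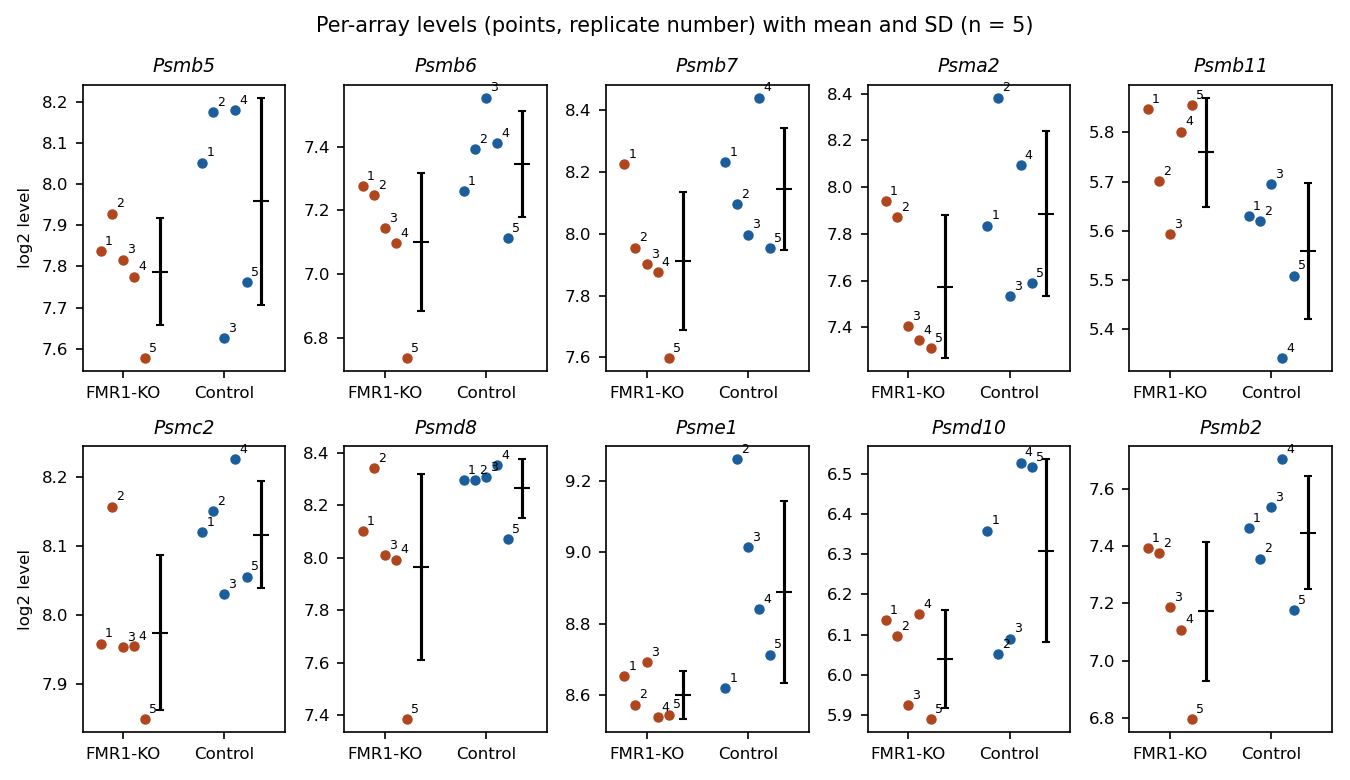
Log2 levels of 10 proteasome genes on each array (points, numbered by replicate), FMR1-KO left and Control right, with the mean and SD of each group (n = 5). Each panel has its own axis, which does not start at 0. FMR1-KO array 5 is the lowest point for Psma2, Psmb2, Psmb5, Psmb6, Psmb7, Psmc2, Psmd8 and Psmd10, and for Psmd10 Control arrays 2 and 3 lie among the FMR1-KO arrays.

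A single array carried much of the shift over all members, more so for the regulatory than for the core genes. FMR1-KO array 5 was the lowest of the 10 arrays for 25 of the 46 members (54.3%), against 17.4% of all genes tested, and this held for 10 of 15 core genes, 12 of 22 regulatory genes and 3 of 7 assembly chaperones. On that array 43 members lay below their own mean over all arrays, with a median deviation of -0.23, while the median over all genes was -0.05 and 61.6% of genes lay below their own mean. After quantile normalization, whose use for this count was chosen after seeing the data, it was the lowest array for 26 members, against 17.8% of all genes. FMR1-KO arrays 1 and 2 had median deviations of 0.06 and 0.09, FMR1-KO arrays 3 and 4 of -0.03 and -0.06, and Control arrays of -0.04 to 0.12.

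Without FMR1-KO array 5, 25 of the 46 members had a lower mean, with a median of -0.02, against 50.5% of all genes. The core median was then -0.11 with 11 of 15 genes lower, and the regulatory median was 0.01 with 10 of 22 lower. The members whose difference turned positive were Psmb1, Psmc4, Psmc6, Psmd4, Psmd5, Psmd12, Psme3, Psme4 and Psmf1. Differences of Psma1, Psma3, Psmc1, Psmd2 and Psmd14 stayed negative at -0.08, -0.02, -0.02, -0.06 and -0.05. At an unadjusted p under 0.05 no member was left in either direction, against 2.82% of genes lower and 6.38% higher in limma. Without Control arrays 2 and 3, 35 of 46 members had a lower mean, with a core median of -0.16 and a regulatory median of -0.12, against 50.3% of all genes.

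**Figure D3:**
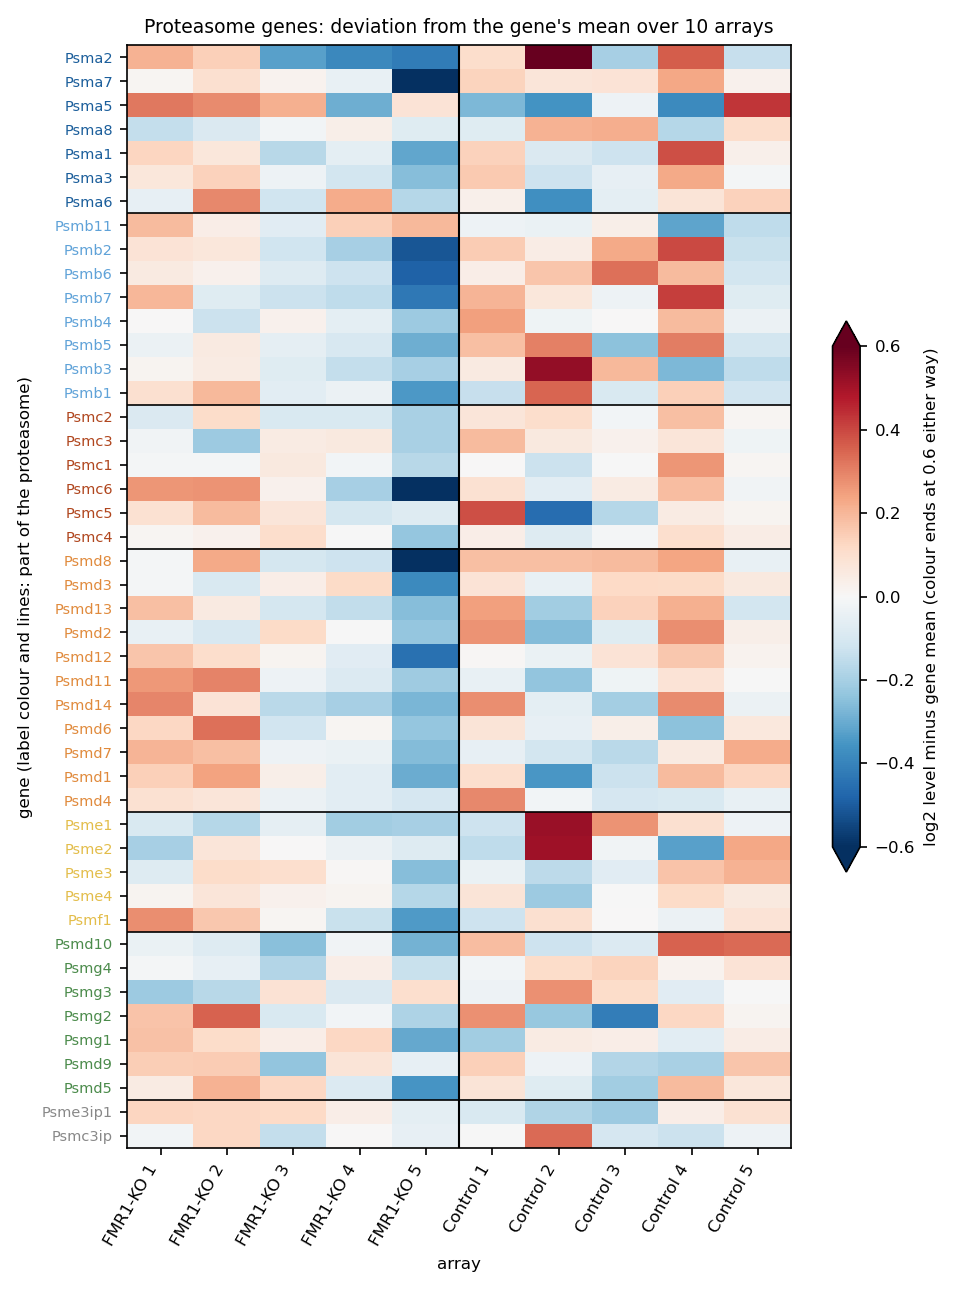
Deviation of each of the 46 proteasome genes (rows, grouped by part and in order of p within a part) from its own mean over 10 arrays, on the log2 scale, for the 5 arrays labelled FMR1-KO (left) and 5 Control arrays (right). The column of FMR1-KO array 5 is blue for 43 of the 46 genes.

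The part means show the same array. The core mean was 7.33, 7.33, 7.19, 7.17 and 6.98 on FMR1-KO arrays 1 to 5, against 7.32, 7.35, 7.27, 7.37 and 7.23 on Control arrays 1 to 5. Regulatory genes averaged 7.95, 7.97, 7.88, 7.82 and 7.61 in FMR1-KO, against 7.96, 7.83, 7.88, 7.98 and 7.92 in Control. The first and second FMR1-KO arrays thus lay within the Control range for both parts, and array 5 lay below all others. Microglia marker means were 9.63, 9.03, 10.46, 10.48 and 10.24 on FMR1-KO arrays 1 to 5, against 9.79, 10.57, 10.77, 10.72 and 10.77 in Control, and astrocyte marker means were 10.89, 10.95, 10.12, 10.21 and 9.99 in FMR1-KO, against 10.51, 9.86, 9.93, 10.13 and 9.82 in Control. Their part in the proteasome values was not tested beyond the covariate fit given next. The FMR1-KO arrays with the highest proteasome means, 1 and 2, were thus those with the lowest microglia and highest astrocyte markers. The order did not hold on all arrays. FMR1-KO array 5, lowest for both parts, had a lower microglia mean than FMR1-KO arrays 3 and 4. Control array 4, the highest Control array for both parts, had a higher microglia mean than Control array 1. With the microglia mean entered as a covariate in limma, 41 of 46 members had a negative difference, against 52.0% of all genes, with medians of -0.21 for core and -0.10 for regulatory genes. At an unadjusted p under 0.05 in that limma fit there were 7 lower and 0 higher members, against 2.74% of all genes lower and 1.80% higher, and 0 members passed after adjustment. The covariate itself went with the group, at 9.97 ± 0.63 in FMR1-KO and 10.52 ± 0.42 in Control (SD, n = 5 each). With 10 arrays the fit cannot separate group from marker level, and FMR1-KO array 5 stayed in it.

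**Figure D4:**
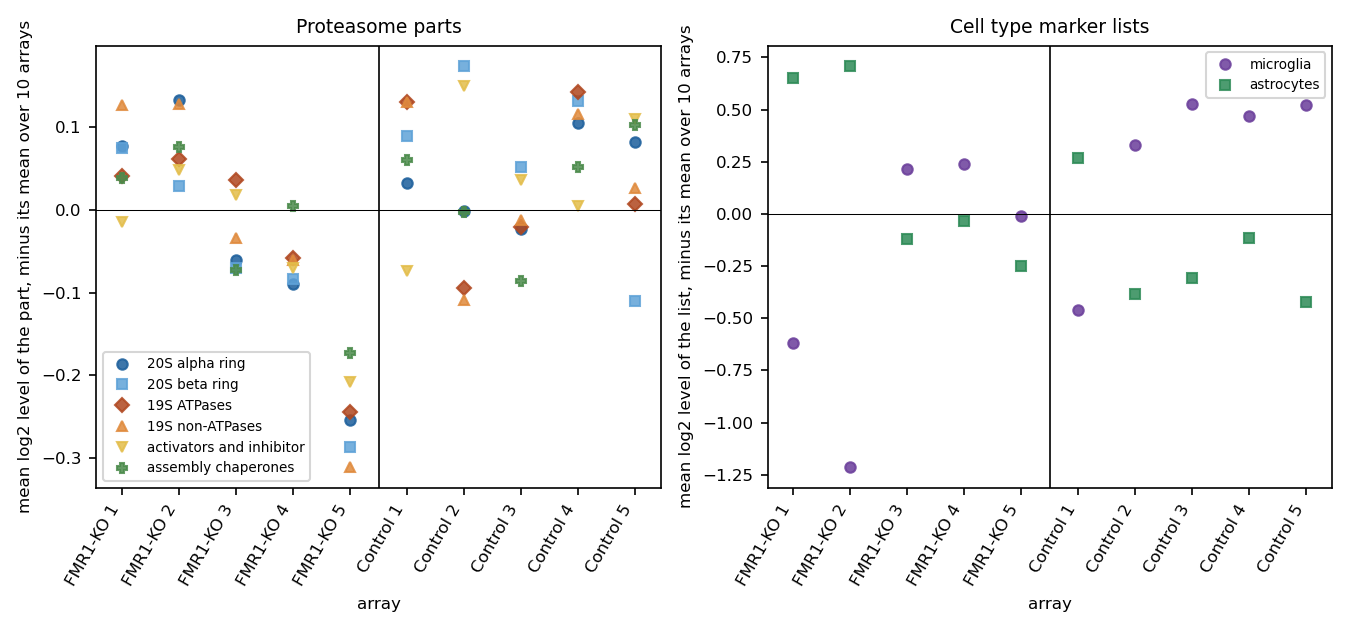
Mean log2 level of 6 proteasome parts (left panel) and of the microglia and astrocyte marker lists (right panel) on each array, minus the mean over 10 arrays, with FMR1-KO arrays left of Control arrays in each panel. All 6 parts are at their lowest on FMR1-KO array 5, and FMR1-KO arrays 1 and 2 have the lowest microglia means.

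Genes that work with the proteasome were read in the same fit. Of 25 listed partners 20 were measured, 13 with a lower and 7 with a higher mean and a median of -0.12, and 0 passed the threshold. The mean of the partner list was also lowest on FMR1-KO array 5, at 7.94. It ran from 8.19 to 8.26 on the other FMR1-KO arrays and from 8.15 to 8.36 in Control. Sem1, the small lid subunit that does not carry a Psm symbol, read 7.61, 7.42, 7.86, 7.70 and 7.44 in FMR1-KO, against 8.44, 8.05, 7.83, 8.06 and 7.91 in Control. Only Control array 3 lay within the FMR1-KO range, and the difference was -0.45 ± 0.13 (SE; unadjusted p = 0.00371, adjusted p = 0.654 in limma). The ubiquitin shuttle Rad23b differed by -0.16 ± 0.09 (SE), Nfe2l2, an activator of antioxidant genes, by -0.23 ± 0.14 and Zfand5, which binds ubiquitin and the proteasome, by -0.24 ± 0.15. Nfe2l1, the transcription factor that raises proteasome genes when the proteasome is inhibited, differed by -0.15 ± 0.11 and read 7.63 ± 0.24 in FMR1-KO and 7.78 ± 0.12 in Control (SD, n = 5 each). Without FMR1-KO array 2 its difference was -0.06, and with the microglia covariate it was -0.02.

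Of 26 listed genes that make, charge, transfer or remove ubiquitin, 19 were measured, 16 with a lower and 3 with a higher mean and a median of -0.16. The conjugating enzymes Ube2d3, Ube2d2a, Ube2l3 and Ube2a differed by -0.35 ± 0.13, -0.27 ± 0.11, -0.22 ± 0.10 and -0.28 ± 0.13 (SE), and none of the 19 genes passed the threshold, with a smallest adjusted p of 0.654 in limma. As with the proteasome parts, the mean of this list was lowest on FMR1-KO array 5, at 7.62, with 7.84 to 8.04 on the other FMR1-KO arrays and 7.93 to 8.18 in Control. Heat shock chaperones, 10 of 12 measured, had 6 lower and 4 higher means with a median of -0.05, and the inducible Hspa1a and Hspa1b varied within the groups, with SDs of 1.69 and 1.37 in FMR1-KO and 1.27 and 1.19 in Control. The mean of the heat shock list was likewise lowest on FMR1-KO array 5, at 7.64. In the interferon and antigen presentation list, Tapbp differed by -0.40 ± 0.15 (SE), B2m by -0.50 ± 0.24, Tap1 by -0.24 ± 0.16 and Irf1 by -0.20 ± 0.16, none past the threshold. The immunoproteasome subunit Psmb8 read 6.96, 6.76, 6.99, 7.14 and 6.83 in FMR1-KO, against 6.86, 7.31, 7.50, 7.21 and 7.47 in Control, a difference of -0.33 ± 0.13 (SE; unadjusted p = 0.0225, adjusted p = 0.654 in limma). Psmb10 differed by -0.18 ± 0.10 and Psmb9 by 0.01 ± 0.14.

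**Figure D5:**
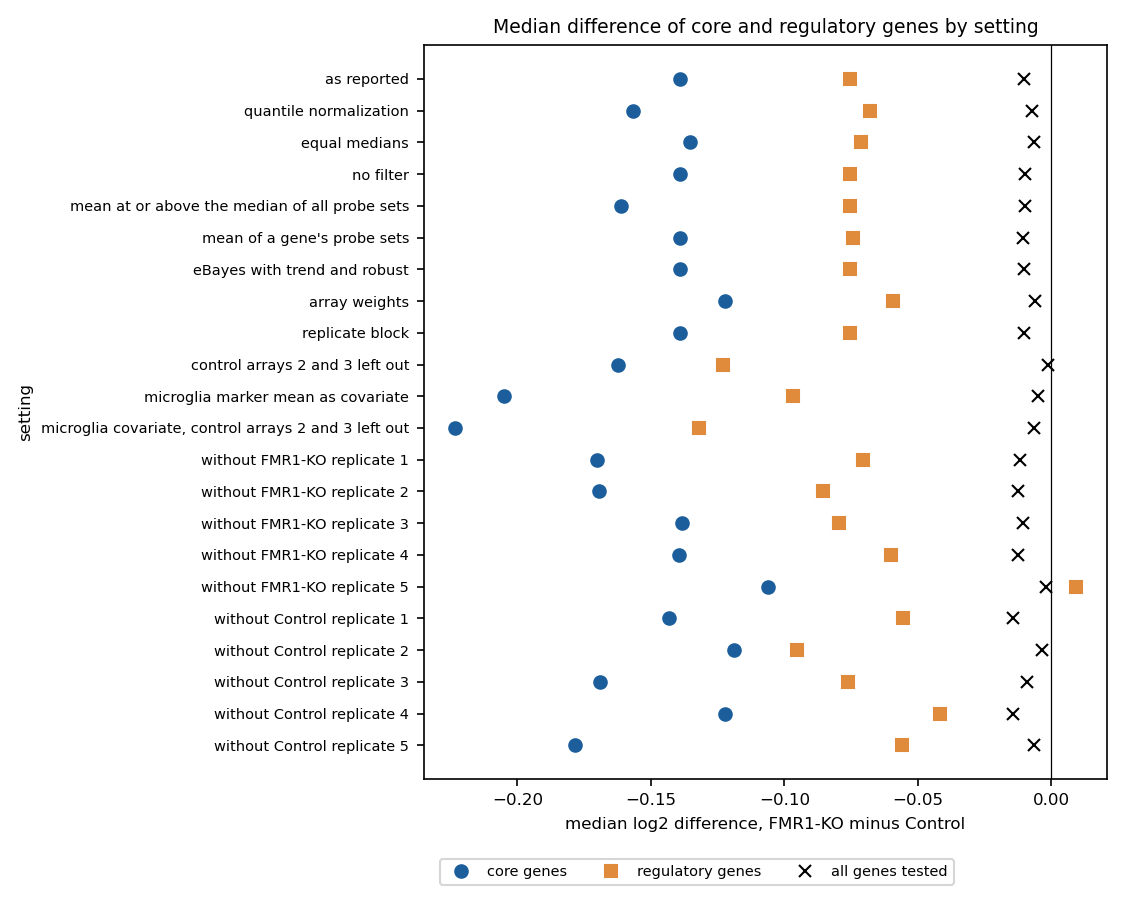
Median log2 difference, FMR1-KO minus Control, of the core genes (circles), the regulatory genes (squares) and all genes tested (crosses) as reported and under each alternative setting (rows). The core median stays between -0.22 and -0.11, and the regulatory median passes 0 only without FMR1-KO replicate 5, at 0.01.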

How the data were processed

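RNA of sorted cortical cells was amplified and labelled with Affymetrix whole-transcript kits, per the labels' protocols, and the authors compared the groups in GeneSpring 13.1.1, per the series' design text. The values the authors deposited are log2 levels per probe set (4.31 to 13.9 over all arrays). For background correction, normalization and probe set summary, the method is not given in the sources used here. With 5 arrays per group, their number limits the precision.

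Of 33793 probe sets, 23521 had 1 gene symbol and 1814 several. The brightest probe set per gene was kept, and genes whose mean over all arrays fell under log2 level 5.32, the 25th percentile, were left out. This left 17712 genes, among them all 46 members, 3 of which had more than 1 probe set. Groups were compared by a two-sided moderated fit (limma 3.58.1, R 4.3.3), adjusted by Benjamini-Hochberg over all genes at 0.05. The script was tested on simulated data. The members, gene lists and motifs were chosen with earlier results of these data known.

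Values per array are given for Psmb5, Psmb6 and Psmb7, for the member with the smallest unadjusted p in each of 6 parts and for the 5 with the smallest p over all, and of each other list up to 4 genes with the smallest p are named. Sem1 and Psmb8 were given per array after their values were seen. Alternatives were quantile normalization, equal medians, other filters, the mean of probe sets, trend and robust moderation, weights per array, a block for replicate number, leaving out arrays, the microglia covariate and a threshold of 0.1.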

Additional observations from a re-analysis of the deposited data

Results flagged for a closer look

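Of 104 sets of 5 arrays examined (46 members and 6 part means in both groups), 6 held an array far from the others by Dixon's ratio at the 95% level, where chance flags about 1 in 20 sets. FMR1-KO array 5 was the low one in 3 of them. Psma7 read 6.97 there and 7.55 to 7.69 on the other FMR1-KO arrays, Psme4 read 8.36 there and 8.55 to 8.60 on the others, and Psmg1 read 6.17 there and 6.52 to 6.66 on the others. In Control, Psmd8 read 8.07 on array 5 and 8.30 to 8.35 on the others, Psmd4 read 7.95 on array 1 and 7.56 to 7.64 on the others, and Psmc3ip read 6.58 on array 2 and 6.11 to 6.23 on the others.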

How the results depend on the processing

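The count of members called was 0 under all 22 alternatives, and so was the count of other pathway genes called. Over all genes, 0 were called under every alternative except without Control replicate 5, where 1 was, so leaving out single arrays gave 0 to 1. The core median lay between -0.22 and -0.11 and the regulatory median between -0.13 and 0.01, where the cause of the change of sign without FMR1-KO replicate 5 is the removal of that array and the reason it reads low was not tested. Members with a lower mean numbered 25 to 41. Members lower at an unadjusted p under 0.05 in limma numbered 2 as reported, 1 with equal medians, 0 without FMR1-KO replicate 5, 6 with array weights (against 4.25% of all genes), 7 with the microglia covariate (2.74%) and 11 with that covariate and Control arrays 2 and 3 left out (2.99%). Single arrays left out gave 0 to 6, the highest being 5 without FMR1-KO replicate 1 (2.60%) and 6 without FMR1-KO replicate 2 (2.50%). Members higher at that p numbered 1 as reported, 2 with quantile normalization, 0 with the median filter (which drops Psmb11) and with either microglia covariate fit, and 0 to 1 without single arrays. With the replicate number as a block, 6 members were lower and 0 higher at an unadjusted p under 0.05, against 6.06% and 5.68% of all genes, 0 were called, and the core and regulatory medians were -0.14 and -0.08. Same-numbered arrays had correlated deviations over 0.1 for 3 of 5 numbers, and 1 of 5 FMR1-KO arrays correlated best with its own number, so the numbers are not taken as pairs. The direction of each of the 10 members given per array was kept under every alternative run for it. Most of these members were chosen by small p in these same data, so a kept direction is partly built in. Changes of filter, moderation, replicate block or threshold also left their differences themselves unchanged. Fmr1 turned to -0.038 with the microglia covariate and Control arrays 2 and 3 left out. Psmb9 ran from -0.11 to 0.23 over all alternatives, with 3 reversals of sign, and from -0.11 to 0.066 without single arrays. The causes were not tested. Dim members (Psma5, Psma8, Psmb11, Psmg4) sit where signal over background limits what can be read.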
